A study of Mus musculus with 4 samples.

Results

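The genes described here make and load the peptides that MHC class I molecules show to CD8 T cells: the inducible proteasome subunits Psmb8, Psmb9 and Psmb10, the proteasome activator subunits Psme1 and Psme2, the peptide transporter subunits Tap1 and Tap2, the peptide editors Tapbp and Tapbpl, and the trimming peptidase Erap1. They were chosen by name, as 10 of the 53379 genes in the count tables. All 10 were found under their symbol, each with 1 identifier, and all 10 were among the 13792 genes with enough reads to be tested.

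The libraries came from sorted cancer cells of C57BL/6 mice carrying subcutaneous MC38-GFP+ tumors, grown from 50000 inoculated cells of this mouse colon adenocarcinoma line. Every mouse, in both groups, received anti-PD-1 antibody at a dose described as sub-optimal, 100 µg on days 12, 15, 18 and 22. No library from an untreated tumor is among them, so all levels are those of treated tumors. Tumors with a response to treatment gave 2 libraries, named responder 1 and 2 below, and tumors without gave 2, named non-responder 1 and 2. The labels used here state neither the age of the mice, how response was scored, nor that replicates are different animals. The p-values therefore rest on variation among 4 libraries that could be technical.

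In most cells the proteasome cuts proteins with the catalytic subunits Psmb5, Psmb6 and Psmb7. Interferon gamma induces Psmb8, Psmb9 and Psmb10, which take their places in newly built particles to give the immunoproteasome, and the PA28 cap of Psme1 and Psme2, which opens the particle. Peptides then enter the endoplasmic reticulum through the Tap1 and Tap2 transporter, are trimmed by Erap1, and are fitted into class I molecules by tapasin, encoded by Tapbp, and its relative encoded by Tapbpl. Leukocytes express many of these genes without that signal.

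Total counts per library were 18447041 to 21754063. The label of cancer cells could be checked only in part. MC38 is of colonic origin, but the epithelial markers Epcam, Krt8, Krt18, Krt19, Cdh1, Cdx2 and Vil1 together reached 0.7 to 3.2 CPM (counts scaled to library size, with TMM factors), and GFP is not a row of the tables. The 10 markers of leukocytes, which were sorted apart, summed to 43.2 and 114 CPM in non-responder 1 and 2 and to 12.6 and 47.1 CPM in responder 1 and 2. The 10 fibroblast markers summed to far more, 9931 and 16246 CPM in the non-responders and 8500 and 7414 CPM in the responders. Whether the tumor cells themselves expressed them was not tested. In these bulk libraries fewer cells of a type and less RNA per cell cannot be told apart.

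No gene of the set passed the test between responder and non-responder tumor cells. In 8 of the 10 genes, Psmb8, Psmb9, Psmb10, Psme2, Tap1, Tap2, Tapbp and Tapbpl, non-responder 1 was the lowest library, non-responder 2 the highest, and both responder libraries lay between them. Among all genes tested that order was seen in 11.4%, and responders lay between the non-responders, whichever was lower, in 21.8%. Psme1 and Erap1 did not follow it. None of the 10 passed an adjusted p of 0.05 in edgeR's quasi-likelihood test over all genes, where 0.0% of genes passed, none had an unadjusted p under 0.05, where 6.21% of genes did, and none passed in DESeq2, where 0.45% did, or in limma-voom, where 0.0% did. Adjusted p-values of the 10 ran from 0.875 to 0.97.

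**Figure D1:**
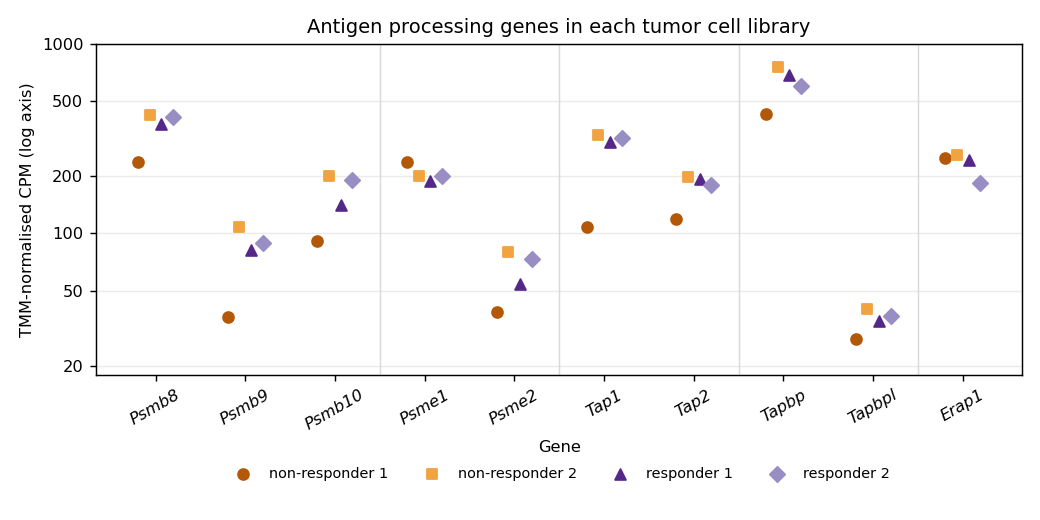
TMM-normalised CPM, on a log axis, of the 10 antigen processing genes in each of the 4 libraries. Each point is 1 library. Grey lines part catalytic subunits, activator subunits, transporter subunits, editors and the trimming peptidase. In 8 genes non-responder 1 is the lowest point and non-responder 2 the highest, while Psme1 is highest in non-responder 1 and Erap1 lowest in responder 2.

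Of the inducible catalytic subunits, Psmb8, which carries the chymotrypsin-like activity, stood at 238 and 420 CPM in the non-responder libraries (replicate 1, then 2, here and below) and at 378 and 411 CPM in the responder libraries. The responders were alike and lay inside the range of the non-responders (329 ± 129 against 394 ± 22.7 CPM, SD, n = 2 per group). Its log2 fold change, responder over non-responder here and throughout, was 0.26 (SE 0.28, edgeR adjusted p = 0.91). Psmb9, which replaces Psmb6, had 36.1 and 108 CPM in the non-responders and 81.3 and 89.3 CPM in the responders. Non-responder 1 was low and both responders lay below non-responder 2, with group means of 71.8 ± 50.5 and 85.3 ± 5.61 CPM (log2 fold change 0.25, SE 0.55, edgeR adjusted p = 0.956). Psmb10, which replaces Psmb7, had 90.97 and 201 CPM against 142 and 192 CPM. Here the responders also differed from each other, by 1.35-fold, and the log2 fold change was 0.19 (SE 0.40, edgeR adjusted p = 0.95).

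The activator subunits, which form 1 ring together, took different orders. Psme1 had 237 and 201 CPM in the non-responders and 188 and 202 CPM in the responders. It was highest in the library where 8 of the other genes were lowest, and its log2 fold change was -0.17 (SE 0.19, edgeR adjusted p = 0.913). Psme2 had 38.3 and 79.4 CPM against 54.3 and 73.2 CPM, low in non-responder 1 and next lowest in responder 1, with a log2 fold change of 0.12 (SE 0.37, edgeR adjusted p = 0.97). Per kilobase of exon, Psme1 exceeded Psme2 by 4.95-fold in non-responder 1, by 2.02-fold in non-responder 2, and by 2.77-fold and 2.21-fold in responder 1 and 2. Copies of Psme2 bear on its level. Of the 50-base windows in its principal transcript, 59.3% also occur in another annotated gene, the retrocopy Psme2b or Gm7928. Reads that fit both Psme2 and a copy are not in the counts. Psme2b itself had 103, 99, 109 and 82 reads in non-responder 1 and 2 and responder 1 and 2, against 792, 1769, 1095 and 1397 reads of Psme2. For Psme1 the share of such windows was 14.1%.

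The transporter subunits had unequal ranges. Tap1 had 109 and 330 CPM in the non-responders and 303 and 318 CPM in the responders. Non-responder 1 stood far below the other 3 libraries, and the group means were 219 ± 156 and 311 ± 10.6 CPM. The log2 fold change of 0.50 (SE 0.55, edgeR adjusted p = 0.916) was smaller than its error. Tap2, the other subunit of the pair, had 119 and 200 CPM against 193 and 181 CPM (log2 fold change 0.23, SE 0.26, edgeR adjusted p = 0.913). Per kilobase of exon, the ratio of Tap1 to Tap2 was 0.63 in non-responder 1 and 1.14, 1.08 and 1.21 in non-responder 2 and responder 1 and 2.

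Tapbp, the tapasin gene, had 427 and 754 CPM in the non-responders and 682 and 602 CPM in the responders (log2 fold change 0.12, SE 0.29, edgeR adjusted p = 0.958). Its most upstream annotated exon overlaps one of Zbtb22 on the same strand, and reads that fit both genes are not in the counts. Tapbpl, which encodes the tapasin-related editor TAPBPR, was the least abundant of the set, with 27.6 and 40.1 CPM against 34.6 and 36.5 CPM (log2 fold change 0.07, SE 0.21, edgeR adjusted p = 0.967). Both editors were lowest in non-responder 1 and highest in non-responder 2, with the responders between.

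Erap1, which trims peptides to the length that class I molecules hold, had 249 and 260 CPM in the non-responders and 243 and 185 CPM in the responders. It was the only one of the 10 whose groups did not overlap, lower in responders, where 36.5% of genes tested did not overlap in either direction and 17.8% did so as lower. The gap was small, from 249 to 243 CPM, and was gone when libraries were scaled by size alone. Responder 2 was the low library. The log2 fold change of -0.25 (SE 0.20, edgeR adjusted p = 0.875) was -0.06 without responder 2 and -0.46 without responder 1.

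Directions changed with the library left out. For the 8 genes with both responders between the non-responders, that order largely sets the sign once either non-responder is left out. Those signs restate the order and are not a separate result. Without non-responder 1, all 10 genes had a log2 fold change below 0, from -0.33 for Psmb9 to -0.04 for Psme1, with a median of -0.20, and none passed, where 0.284% of genes did. Without non-responder 2, 8 of 10 were above 0 at a median of 0.69. Tap1 (2.86-fold, edgeR adjusted p = 0.000821), Psmb9 (2.36-fold, adjusted p = 0.00139) and Psmb10 (1.83-fold, adjusted p = 0.0451) then passed as higher in responders, where 1.94% of 14259 genes did so. With all 4 libraries the median was 0.16, with 8 of 10 above 0, against -0.01 over all genes tested, of which 48.9% were above 0. Without responder 2, Psmb10 (-0.041) and Psme2 (-0.11) also turned below 0, which left 6 of 10 above. A fit without 1 non-responder rests on a lone library of that group, which is assumed to vary like the responders.

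**Figure D2:**
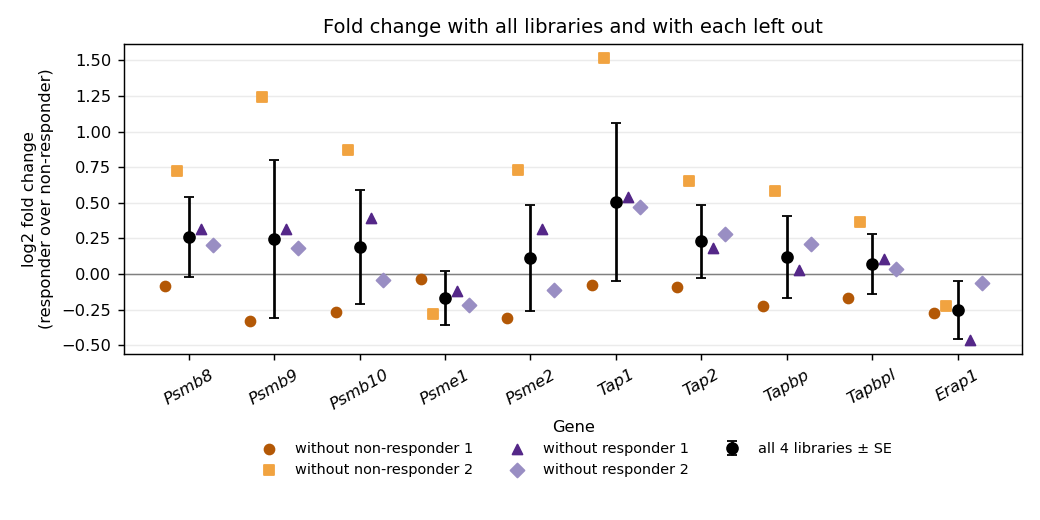
Log2 fold change, responder over non-responder, of the 10 antigen processing genes from edgeR. Black points with bars are the fit with all 4 libraries ± SE, and coloured points the fits with 1 library left out. Without non-responder 1 every gene lies below 0, and without non-responder 2 the values reach 1.52 for Tap1.

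Between the non-responder libraries the genes ranged widely. Tap1 was 3.03-fold and Psmb9 2.95-fold higher in non-responder 2 than in non-responder 1, followed by Psmb10 (2.2-fold), Psme2 (2.06-fold), Tapbp (1.77-fold), Psmb8 (1.76-fold), Tap2 (1.68-fold) and Tapbpl (1.44-fold). Erap1 was 1.04-fold higher and Psme1 lower, at 0.848 times. In 7 of the 10 the difference was at least 1.5-fold upward, as in 13.3% of genes tested, and the median log2 difference was 0.82 against 0.03 over all genes. Between the responder libraries 7 of the 10 were within 1.2-fold of each other, near the share of 63.6% among all genes, with Psmb10 (1.35-fold), Psme2 (1.34-fold) and Erap1 (1.31-fold lower in responder 2) outside. Marker lists named for other cell types also differed between the non-responders, and which cells expressed the markers was not tested. In non-responder 1 and 2 and responder 1 and 2 the leukocyte list summed to 43.2, 114, 12.6 and 47.1 CPM, the macrophage list to 86.6, 231, 13.9 and 82.8 CPM, and the fibroblast list to 9931, 16246, 8500 and 7414 CPM. The epithelial and colonic list, with 0.725, 3.23, 2.48 and 1.94 CPM, had the order seen in the 8 genes, at levels near 0. Only 1 of its 7 genes had enough reads to be tested, so little can be read from that order. The median log2 difference between the non-responders was 1.47 for leukocyte and 1.52 for macrophage markers, above the 0.82 of the antigen processing genes, and 0.44 for fibroblast markers. Lists with only 1 or 2 genes tested ran both ways: epithelial 1.67, dendritic 0.95, T and NK -0.12, endothelium -0.34, B and plasma -0.76. Between the responders, replicate 2 over 1, it was 2.31 for leukocyte, 3.10 for macrophage and -0.27 for fibroblast markers. The antigen processing genes had 0.09 there. Between the groups, all 10 leukocyte and all 10 macrophage markers had a log2 fold change below 0, at medians of -1.74 and -1.95, as had all 9 fibroblast markers tested, at a median of -1.25, and none passed. An unadjusted edgeR p under 0.05, seen in 6.21% of genes tested, was found in 7 of the 9 fibroblast markers. It was found in 0 leukocyte and 0 macrophage markers. Groups did not overlap, lower in responders, in 8 of the 9 fibroblast markers. They did so in 3 of 10 leukocyte and 3 of 10 macrophage markers, and in 17.8% of genes tested. T and NK cell markers summed to 0.4 to 2.6 CPM and the neutrophil markers to 0.1 to 1.4 CPM. The part of these cell types in the result was not tested.

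Tap1 and Psmb9, the genes with the widest range, share a start region. Psmb9, Tap1, Psmb8 and Tap2 lie side by side within 34.3 kb of chromosome 17 on the mm10 build: Psmb9 from 34181988 to 34187764 on the minus strand, then on the plus strand Tap1 from 34187553 to 34197225, Psmb8 from 34197721 to 34201454 and Tap2 from 34203527 to 34216321. Tapbp lies on the same chromosome from 33915899 to 33929288. The others are elsewhere: Tapbpl on chromosome 6 from 125223933 to 125231860, Psmb10 on chromosome 8 from 105935735 to 105938444, Erap1 on chromosome 13 from 74639568 to 74693201, and Psme1 and Psme2 on chromosome 14 from 55578123 to 55581529 and from 55587441 to 55591113. Counts were taken over the annotated exons and by strand, so the 212 bases in which the annotated Psmb9 and Tap1 transcripts overlap head to head do not mix their reads.

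Start windows from RefSeq on GRCm38.p6, from 250 bases before to 50 after a gene's start, were found for 8 of the 10 genes, without Tap2 and Tapbpl. Those of Tap1 and Psmb9 are the same stretch read from opposite strands over 275 bases, with start sites 226 bases apart, and it is shown once, as the Tap1 window at chr17:34187306-34187605 on the plus strand. The windows of Erap1 (chr13:74639603-74639902, plus strand) and Psme1 (chr14:55578244-55578543, plus strand) are shown because they are the genes that did not follow the order of the others, and that of Psmb8 (chr17:34197945-34198244, plus strand) because it alone held a GAS match. Capitals mark matches to any of the 5 patterns searched.
Tap1 and Psmb9: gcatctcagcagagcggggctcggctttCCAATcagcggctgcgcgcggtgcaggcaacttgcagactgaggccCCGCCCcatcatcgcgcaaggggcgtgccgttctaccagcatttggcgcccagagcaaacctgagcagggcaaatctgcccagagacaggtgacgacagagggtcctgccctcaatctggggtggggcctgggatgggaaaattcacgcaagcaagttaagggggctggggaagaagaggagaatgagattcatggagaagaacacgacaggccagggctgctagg
Psmb8: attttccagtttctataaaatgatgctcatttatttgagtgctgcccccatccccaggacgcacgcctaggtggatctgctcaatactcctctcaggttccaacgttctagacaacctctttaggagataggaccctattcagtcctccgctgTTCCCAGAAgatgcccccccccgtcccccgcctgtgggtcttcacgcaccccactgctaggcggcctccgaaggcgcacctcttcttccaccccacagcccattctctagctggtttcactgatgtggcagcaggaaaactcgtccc
Psme1: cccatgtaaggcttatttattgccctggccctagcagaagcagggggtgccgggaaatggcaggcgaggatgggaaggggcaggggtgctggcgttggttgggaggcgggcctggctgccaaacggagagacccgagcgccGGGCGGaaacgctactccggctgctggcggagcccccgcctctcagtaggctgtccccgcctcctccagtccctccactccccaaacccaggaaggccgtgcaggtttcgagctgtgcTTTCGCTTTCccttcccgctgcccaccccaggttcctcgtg
Erap1: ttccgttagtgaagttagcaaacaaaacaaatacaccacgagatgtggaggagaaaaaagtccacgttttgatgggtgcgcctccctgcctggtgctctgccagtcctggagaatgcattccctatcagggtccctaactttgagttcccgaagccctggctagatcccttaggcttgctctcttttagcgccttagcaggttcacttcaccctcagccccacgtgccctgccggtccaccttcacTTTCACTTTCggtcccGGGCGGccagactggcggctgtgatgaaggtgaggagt

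The patterns, read on both strands, were GAAA, any 2 bases and GAAA for interferon response elements of the ISRE type, TTC, any 3 bases and GAA for the GAS element of interferon gamma response, GGG, any 2 bases and TTTCC for NF-kB, GGGCGG for the Sp1 GC box and CCAAT. The ISRE-type pattern was found in 2 of the 8 genes with a window, Psme1 and Erap1, where 3.99% of 27025 genes hold it. In Erap1 it spans the start site, from base -4 to base 5, and in Psme1 it runs from base 9 to base 18. The GAS pattern was in Psmb8 alone of the 8, against 9.55% of genes, and the NF-kB pattern in none, against 1.89%. The Tap1 window held a GC box and a CCAAT box. GC boxes were in 6 of the 8 genes and CCAAT in 3, against 38.2% and 41.1% of genes, where the GC box and the CCAAT box in the stretch shared by Tap1 and Psmb9 are each counted for both. These are matches of letters within 300 bases. The start used by RefSeq lies 474 bases from that in the count tables' annotation for Psmb8, 434 for Psmb9, 371 for Psme1, 285 for Erap1 and 3579 for Tapbp, so that positions given from the start hold for the RefSeq start alone.

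The reads of inducible subunits were set against those of their constitutive counterparts within each library, which needs no scaling between libraries and measures transcripts, not the make-up of the particle. Per kilobase of exon, the ratio of Psmb8 to Psmb5 was 6.45 and 8.91 in the non-responders and 9.31 and 8.33 in the responders. That of Psmb9 to Psmb6 was 0.167 and 0.446 against 0.358 and 0.33, and that of Psmb10 to Psmb7 was 1.81 and 3.41 against 2.39 and 2.96. All 3 ratios were lowest in non-responder 1. The log2 differences between groups were 0.22, 0.33 and 0.10, with exact permutation p-values of 0.667, 1 and 1 (two-sided, n = 2 per group, 1 each after adjustment over the 3 pairs), in a design whose smallest possible p is 0.333. Without non-responder 1 all 3 turned below 0, to -0.02, -0.38 and -0.36. Summed over the 3 pairs, inducible subunits made up 59.6% of the catalytic reads per kilobase in non-responder 1, 71.9% in non-responder 2, and 68.5% and 68.8% in responder 1 and 2.

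**Figure D3:**
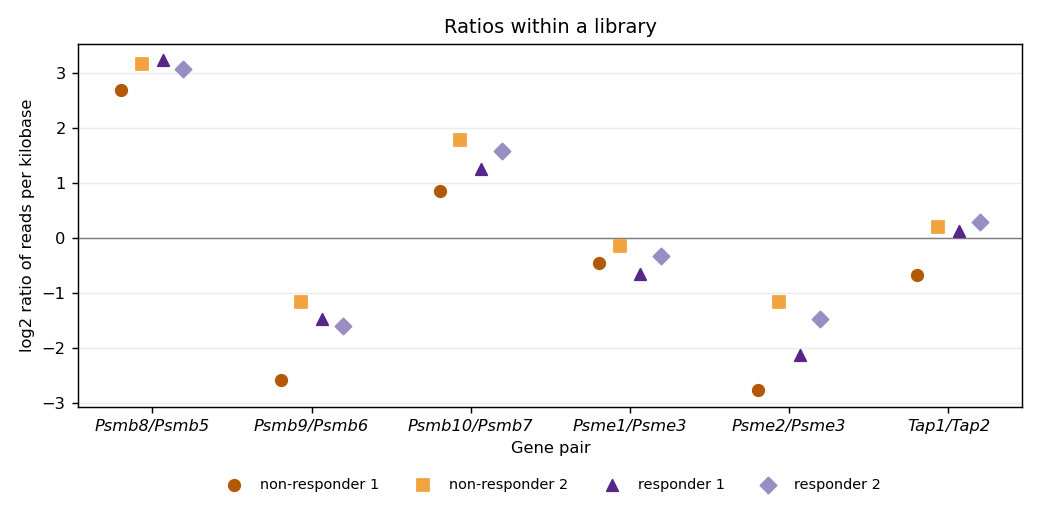
Log2 ratio of reads per kilobase of exon between paired genes within each library, 1 point per library. The inducible over constitutive catalytic subunits, Psme2 over Psme3 and Tap1 over Tap2 are lowest in non-responder 1. Psme1 over Psme3 is lowest in responder 1.

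The constitutive subunits themselves varied less. Psmb5 had 12.1 and 15.5 CPM in the non-responders and 13.4 and 16.2 CPM in the responders, Psmb6 110 and 124 against 116 and 139 CPM, and Psmb7 101 and 118 against 119 and 130 CPM. The level of a ratio, unlike its difference between libraries, depends on the length used and on copies. Of the 50-base windows of Psmb5, 50% also occur in pseudogenes, so that gene may be undercounted, by an unknown amount. With the length of the principal transcript in place of the whole annotated exon length, the ratios of Psmb10 to Psmb7 were 0.798, 1.5, 1.05 and 1.31 in the same order of libraries, and those of Psmb8 to Psmb5 were 10.8, 15.0, 15.7 and 14. The summed share of inducible subunits rests on the whole annotated exon length and depends on length and copies too. By principal transcript, non-responder 1 had 146, 26.7 and 69.4 CPM per kb of Psmb8, Psmb9 and Psmb10. Psmb5, Psmb6 and Psmb7 had 13.5, 138 and 86.9 there. The share was not computed by that length.

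Between the genes, levels per kilobase of exon (mean ± SD over the 4 libraries) ran from Tapbp at 187 ± 42.7 and Psmb8 at 132 ± 30.8 CPM per kb, through Psme1 at 93.8 ± 9.51, Psmb10 at 91.7 ± 29.8, Tap1 at 48.4 ± 19.1, Tap2 at 45.8 ± 9.77, Psme2 at 34.8 ± 10.6, Erap1 at 32.2 ± 4.62 and Psmb9 at 21.5 ± 8.30, down to Tapbpl at 14.8 ± 2.22 CPM per kb. Of neighbours in that order, Psme1 and Psmb10, Tap1 and Tap2, Psme2 and Erap1, and Psmb9 and Tapbpl differed by less than the larger SD of the pair. The order moved with the length: per kilobase of the principal transcript Psmb8 came first at 222 ± 51.8 CPM per kb, ahead of Tapbp at 213 ± 48.6, and Psmb9 rose in rank to 58.1 ± 22.5, above Tap2 at 50.3 ± 10.7. Tapbpl was last by either length.

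The rest of the class I pathway, in 9 lists, was set beside these genes, and no gene of it passed edgeR's test over all genes. Nlrc5 and Irf1, factors that drive class I transcription, were lowest in non-responder 1. Nlrc5, the transactivator of class I genes, had 41.2 and 169 CPM in the non-responders and 154 and 177 CPM in the responders, a 4.06-fold range between non-responders. Irf1, an interferon-induced factor, had 287 and 461 against 406 and 455 CPM. Their log2 fold changes were 0.66 (SE 0.73) and 0.20 (SE 0.26). Without non-responder 1 they were -0.02 and -0.09, and without non-responder 2 they were 2.0 and 0.58. Both thus depended on which non-responder library was kept. In the list of 16 such regulators 7 were lowest in non-responder 1, where 33.4% of genes tested were. All 8 class I chains were lowest there, with a median log2 difference of 1.11 between the non-responders. B2m, the light chain, had 4673 and 5297 against 5520 and 5630 CPM.

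In the rest of the proteasome, non-responder 1 was lowest for 3 of 3 constitutive catalytic subunits, 7 of 11 structural subunits of the 20S core and 10 of 18 genes of the 19S regulatory particle, and differences in these counts between lists were not tested. The 18 genes of the 19S particle, the cap that feeds proteins to the proteasome, had a median log2 difference of 0.01 between the non-responders, and the 11 structural subunits of the 20S core of 0.19. Their median log2 fold changes, responder over non-responder, were 0.14 and 0.12, with 17 of 18 and 8 of 11 genes above 0. Groups did not overlap, higher in responders, in 11 of the 18 and 3 of the 11, as in 18.8% of genes tested. Psme3, the activator of nuclear proteasomes, was highest in non-responder 1 (436 and 297 against 395 and 339 CPM), and Psme4 in responder 1 (344 and 290 against 369 and 281 CPM). The proteasome maturation factor Pomp had 106 and 112 against 107 and 122 CPM, and the aminopeptidase Lap3 93.8 and 90.4 against 101 and 112 CPM. The chaperones that hold class I chains for loading had a median log2 fold change of -0.10, with 5 of 6 below 0, none of them passing, and of -0.03 between the non-responders. In 4 of the 6 the groups did not overlap, lower in responders, as in 17.8% of genes tested. Calr had 1997 and 1854 against 1683 and 1757 CPM, Canx 1459 and 1356 against 1539 and 1351 CPM, and Pdia3 1670 and 1620 against 1540 and 1532 CPM. The 6 interferon gamma receptor and signalling genes had a median log2 fold change of -0.14 and of -0.05 between the non-responders.

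**Figure D4:**
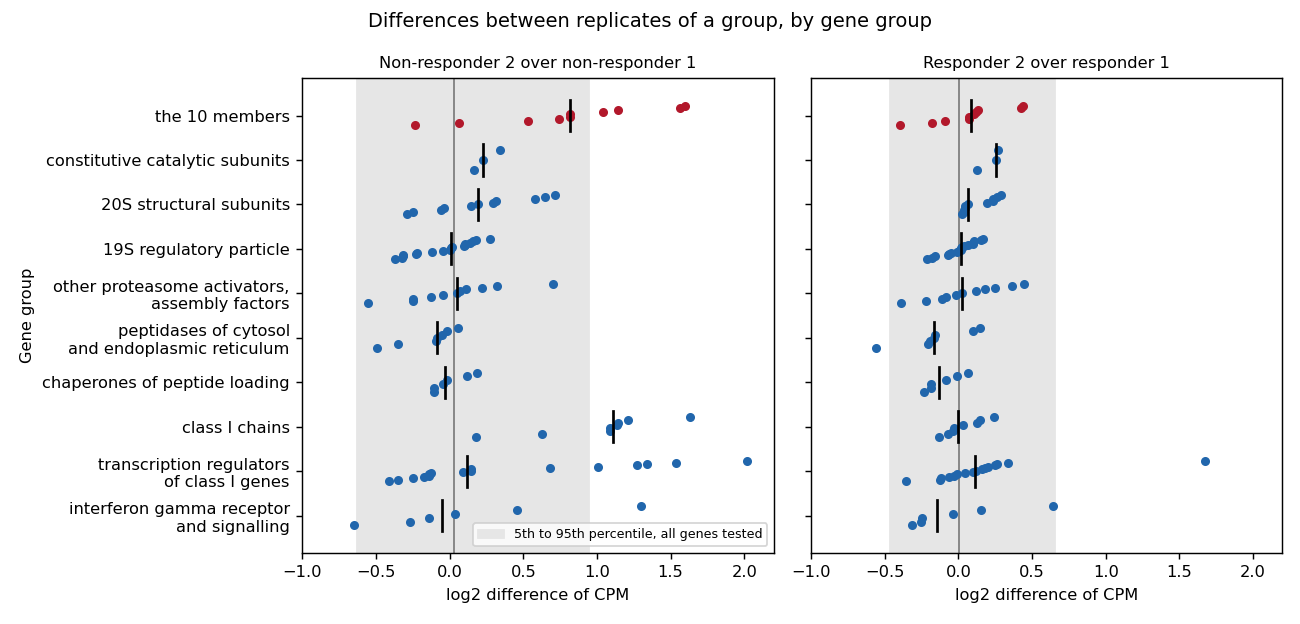
Log2 difference of CPM between the replicates of a group for each gene, by gene group: non-responder 2 over non-responder 1 on the left, responder 2 over responder 1 on the right. Each point is 1 gene, the black bar is the group's median, the grey line the median of all genes tested, and the band their 5th to 95th percentile. On the left the antigen processing genes (top row, labelled the 10 members, median 0.82) and the class I chains (median 1.11) lie at higher medians than the other pathway lists, marker lists not being drawn, and on the right their medians are 0.09 and -0.001.

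Among the genes outside the pathway whose levels were most like the median pattern of the 10 were Eno1, Samhd1, Lars2, Carhsp1 and Il34. Likeness was the Euclidean distance between log2 CPM values centred over the 4 libraries, 0.036 for Eno1 and 0.061 for Il34, among 9645 candidates. Samhd1, which breaks down deoxynucleotides, had 149 and 260 CPM in the non-responders and 229 and 232 CPM in the responders. Within the set itself Psmb8 was closest to the median pattern, at 0.079, and Tap1 (0.72), Erap1 (0.811) and Psme1 (0.855) farthest.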

How the data were processed

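Bulk RNA-seq of 4 sorted tumor cell libraries was used. Per the labels, polyadenylated RNA was captured and libraries kept strand. The deposited values are raw counts per Ensembl gene, made with featureCounts 1.6.1 at strand setting 2 on Ensembl release 91, per the file headers, after alignment with STAR to mm10 (GRCm38), per the submitters' processing notes. The version of STAR is not given in the sources used here. The recorded command does not turn on the counting of multi-mapping reads.

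Symbols were matched for 53274 of 53379 genes. Genes were kept by filterByExpr (minimum count 10), scaled by TMM (factors 0.952 to 1.04) and tested with edgeR 4.0.16 in R 4.3.3 by a robust quasi-likelihood test with group as the only term and Benjamini-Hochberg adjustment over all 13792 genes at 0.05. The method was checked on simulated data. The common biological coefficient of variation was 0.216. SEs were derived from edgeR's F statistic. CPM are TMM-normalised, and folds between replicates add 0.5 CPM to each value. Alternatives were RLE and upper-quartile factors, library size alone, DESeq2 1.42.0, limma-voom (limma 3.58.1), no filter, 5 CPM in 2 libraries, the replicate block and each library left out. Principal transcripts (GENCODE M21) were added after seeing the data. The named genes were all 10, 14 set pathway genes and the 6 most alike with a mean of at least 5 CPM. Of these, 1 pathway gene and 1 of the 6 are not reported here. Other genes named were chosen after their values were seen, as was the 1.2-fold limit between responders. The genes and lists were chosen with earlier results of these data known. Precision is limited by 2 libraries per group.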

Additional observations from a re-analysis of the deposited data

How the results depend on the processing

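No gene passed edgeR with all 4 libraries. DESeq2 called 62 genes, a fit with no low-count filter 212, and 856 had an unadjusted p under 0.05. Leaving out 1 library at a time called 41 to 516. Leaving out 1 library moved the median log2 fold change of the 10 antigen processing genes over -0.20 to 0.69 and the number above 0 over 0 to 8. The ratio differences ran from -0.018 to 0.45 for Psmb8 to Psmb5, from -0.38 to 1.04 for Psmb9 to Psmb6 and from -0.36 to 0.55 for Psmb10 to Psmb7. By gene, the ranges were Tap1 -0.079 to 1.52, Tap2 -0.090 to 0.65, Tapbp -0.23 to 0.59, Tapbpl -0.17 to 0.36, Psmb8 -0.086 to 0.73, Psmb9 -0.33 to 1.24, Psmb10 -0.26 to 0.87 and Psme2 -0.31 to 0.73. List medians ran from -0.28 to 0.76 for class I chains, -0.0052 to 0.28 for constitutive catalytic subunits, 0.012 to 0.22 for 20S structural subunits, 0.13 to 0.16 for the 19S particle, -0.10 to 0.17 for peptidases, 0.032 to 0.16 for transcription regulators and -0.20 to -0.038 for interferon gamma signalling. For other named genes they were Nlrc5 -0.023 to 2.0, Irf1 -0.094 to 0.58, Psmb5 -0.063 to 0.28, Psmb6 -0.0052 to 0.24, Psme3 -0.25 to 0.31, Psme4 -0.17 to 0.22, Pomp -0.019 to 0.16, Canx -0.063 to 0.13, Eno1 -0.18 to 0.67, Samhd1 -0.17 to 0.63, Lars2 -0.17 to 0.68, Carhsp1 -0.11 to 0.66 and Il34 -0.15 to 0.61. By library size alone no gene of the 10 had groups that did not overlap (0 against 1), the 19S median was 0.17, and the peptidase median turned from -0.016 to 0.018. Psme3 turned from 0.0024 to -0.0051 with RLE factors and with DESeq2 and to -5.3e-05 with no filter. For these moves the cause was not tested.

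The replicate numbers are shared by the groups. Deviations of same-numbered libraries from their group means had a correlation of 0.373 across genes, from 2 pairs, too few to show that the numbers pair the samples. The fit with the replicate number as a block called 32 genes, none of the 10, and gave them a median log2 fold change of 0.23. Without a block that median was 0.16 in edgeR and 0.24 in limma-voom. The cause of these differences was not tested.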

Other observations

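Beyond the interferon-related genes, Rfx5, a subunit of the RFX complex that binds class I and class II promoters, had 31.5 and 28.8 CPM in the non-responder and 21.4 and 20.97 CPM in the responder libraries, a log2 fold change of -0.51 (SE 0.18). It did not pass over all genes (edgeR adjusted p = 0.744) and was chosen after its values were seen. Its non-responder libraries were alike, unlike those of Nlrc5. Thop1, a cytosolic peptidase that destroys class I peptides, had 44.5 and 44.0 against 53.0 and 56.9 CPM, a log2 fold change of 0.31 (SE 0.16, edgeR adjusted p = 0.809), and was likewise chosen after its values were seen.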
